A study of Mus musculus with 9 samples.

Results

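Oligodendrocytes wrap axons of the central nervous system in myelin, a multilayered membrane rich in cholesterol and galactolipids and held compact by a small set of abundant proteins. Precursor cells mature under the transcription factors Olig1, Olig2, Sox10, Nkx6-2 and Myrf, and mature cells carry long-lived myelin protein mRNAs, part of which travels into the processes. In the hippocampus such cells line the fibre tracts that enter and leave the region and lie scattered among its neurons.

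The 31 oligodendrocyte and myelin genes described here were taken by name from the count tables of 9 libraries. All 31 were found among the 40213 genes of each table, and all 31 were among the 16106 genes that passed the filter on low counts. They were divided by role into 14 genes of myelin structure, 4 of lipid synthesis, 5 transcription factors and 8 enzymes, carriers and other genes of mature oligodendrocytes. The libraries came from ventral hippocampus of wild-type male C57BL/6J mice that were 8 weeks old when housed, with 3 mice in each of 3 groups. Sedentary controls (SED) received no treatment. Stress-susceptible mice (SUS) were restrained in a ventilated tube for 2 hours a day on 14 days. The third group (SUS_LE) was restrained in the same way and then ran on a treadmill at low intensity for 2 weeks, while the other groups stayed sedentary. The score that defined susceptibility and the interval between the last session and tissue collection are not given in the sources used here. All 9 libraries carry 1 batch number.

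Library totals ranged from 14172344 to 15582304 counts, and the least abundant of the 31 genes, Nkx6-2, had 34 to 64 counts in a library. Levels are given in CPM, counts scaled to library size with TMM factors, with mean ± SD over 3 mice. Differences are log2 fold changes with their standard error (SE) from an edgeR quasi-likelihood fit to all 9 libraries, with p-values adjusted by the Benjamini-Hochberg method over all 16106 genes and a threshold of 0.05. The libraries also differed in choroid plexus tissue. The summed level of 10 choroid plexus markers was 3284 to 4814 CPM in SED, 57.4, 2943 and 6690.2 CPM in SUS 1 to 3, and 124, 1672 and 95.9 CPM in SUS_LE 1 to 3. All 10 markers lay lower in SUS_LE than in SED without overlap, and Ttr, the most abundant of them, ranged from 27.4 to 6085 CPM over the 9 libraries. In tissue RNA, fewer cells of a type and less RNA per cell cannot be told apart. Markers of Schwann cells, the myelinating cells of peripheral nerve, were mostly too low to test: 5 of 8 did not pass the filter.

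Between SUS and SED, 28 of the 31 genes had lower values in SUS, with a median log2 fold change of -0.15, against a median of 0 over all tested genes. By edgeR 0 of the 31 passed the adjusted threshold, and 0% of all tested genes did. At an unadjusted edgeR p of 0.05, 11 were lower and 1 was higher, where 6.26% of all tested genes were lower and 6.83% higher. In 10 genes all 3 SUS values lay below all 3 SED values, and in 1 they lay above, against 8.56% and 9.72% of all tested genes. DESeq2, a second count model, placed 4 of the 31 lower (Tspan2, Ermn, Mal and Ugt8a) and 0 higher, against 1.71% and 1.64% of the genes to which it gave an adjusted p. Its independent filtering left 11 of the 31 without an adjusted p, among them Aspa, Enpp6, Sox10 and Olig2. With that filtering turned off DESeq2 called only Tspan2 of the 31 (53 of 16106 genes), and the calls of Ermn, Mal and Ugt8a were lost. The members had been assembled with earlier results of these data known, so these counts describe the genes and are no independent test of their direction. Without SUS 2, edgeR called 3 of the 31 (Tspan2, Mal and Ugt8a) and 27 of 16366 genes in all. With any other library left out edgeR called 0 of the 31. The smallest edgeR adjusted p of the 31 was then 0.343 without SED 1 and 0.477 without SED 3. Without any filter on low counts edgeR called 5 of the 31 and 297 of 26992 genes.

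**Figure D1:**
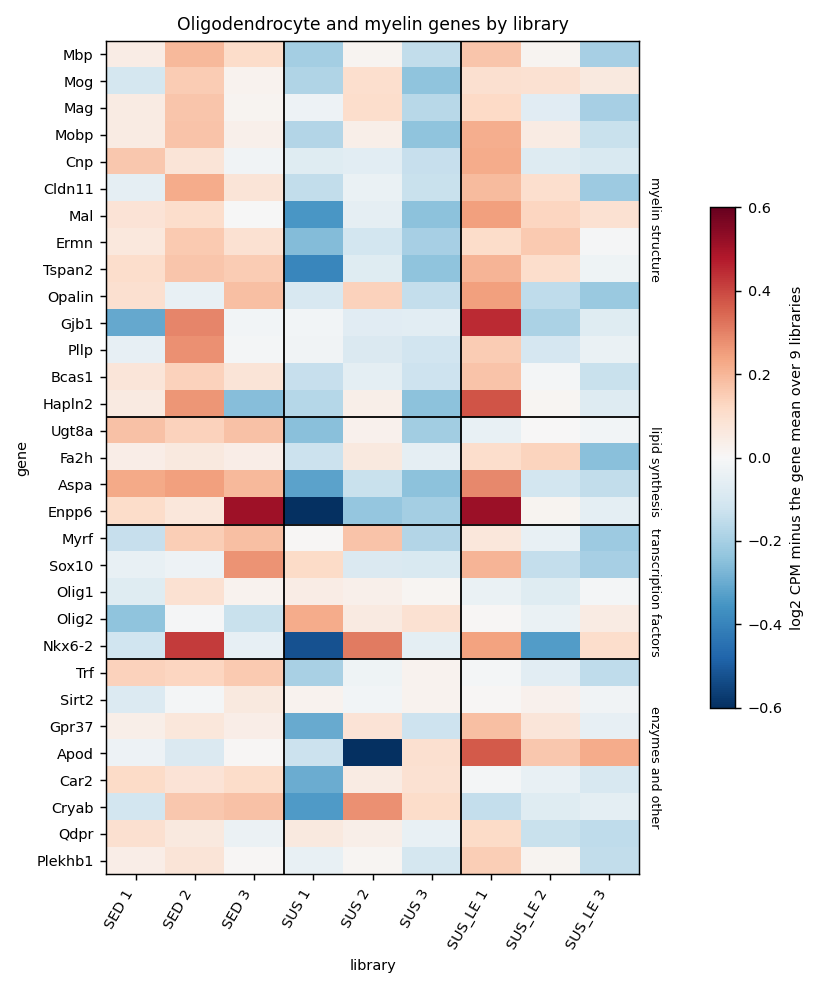
Level of each of the 31 genes (rows, grouped by role) in each of 9 libraries (columns), as log2 CPM minus the gene's mean over the 9 libraries. Blue is below and red above that mean, and colours saturate at 0.6. SUS 1 was the lowest library in 13 of the 31 genes, and SUS_LE 1 was the highest in 14.

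All 14 genes of myelin structure had lower values in SUS than in SED, with log2 fold changes from -0.37 to -0.06 and a median of -0.18. Of these, 7 (50%) were lower at an unadjusted edgeR p of 0.05, against 6.26% of all tested genes. In 6 (42.9%) SUS lay below SED without overlap, against 8.56% of all tested genes. Tspan2, a tetraspanin of the oligodendrocyte membrane, had the smallest p of the 31 genes. In library order its level was 89.6, 93.5 and 92.7 CPM for SED, 63.4, 79.2 and 70.5 for SUS, and 96.0, 89.6 and 81.9 for SUS_LE. Every SUS value lay below every value of the other 2 groups. The SUS mean was 71.0 ± 7.89 CPM and the SED mean 91.9 ± 2.05, a ratio of 0.773 (log2 -0.37, SE 0.07, edgeR adjusted p = 0.0929, DESeq2 adjusted p = 0.00434).

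Ermn codes for ermin, a cytoskeletal protein of mature myelin sheaths. It stood at 57.0, 60.9 and 58.3 CPM in SED, at 45.6, 50.6 and 47.5 in SUS, and at 58.9, 60.8 and 54.4 in SUS_LE. The 3 SUS values were again below the other 6 (log2 -0.29 against SED, SE 0.07, edgeR adjusted p = 0.124, DESeq2 adjusted p = 0.0231). Mal, a proteolipid of membrane rafts that takes part in myelin protein traffic, stood at 109, 111 and 103 CPM in SED, at 81.1, 99.6 and 87.0 in SUS, and at 122, 113 and 109.9 in SUS_LE. Its SUS values lay below those of both other groups (log2 -0.27 against SED, SE 0.07, edgeR adjusted p = 0.134, DESeq2 adjusted p = 0.0269).

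The most familiar myelin genes differed less relative to their spread. Mbp, myelin basic protein, which holds the inner faces of the myelin membrane together, stood at 1165, 1293 and 1220.3 CPM in SED, at 982, 1143 and 1019 in SUS, and at 1267, 1143 and 984 in SUS_LE. SUS lay below SED without overlap, while SUS_LE spanned nearly the whole range of both (log2 -0.23 for SUS against SED, SE 0.08, edgeR adjusted p = 0.267). Mobp, a small basic protein of compact myelin, stood at 439, 478 and 433 CPM in SED, at 375, 435 and 359 in SUS, and at 493, 439 and 387 in SUS_LE. SUS 2 lay within the SED range (log2 -0.21, SE 0.09, edgeR adjusted p = 0.367). Cnp, an enzyme of the non-compact myelin channels, stood at 129, 122 and 114 CPM in SED, at 109.7, 110.5 and 105 in SUS, and at 135, 109 and 108 in SUS_LE. SUS values were below all SED values, and 2 of the 3 SUS_LE values lay among those of SUS (log2 -0.17 for SUS against SED, SE 0.08, edgeR adjusted p = 0.367).

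The adhesion proteins of the sheath overlapped between groups. Mag, which binds the axon surface, stood at 71.9, 78.1 and 70.2 CPM in SED, at 68.0, 74.9 and 62.0 in SUS, and at 75.6, 66.3 and 60.6 in SUS_LE (log2 -0.10 for SUS against SED, SE 0.08, edgeR adjusted p = 0.637). Mog, on the outermost myelin layer, stood at 22.2, 26.6 and 24.3 CPM in SED, at 21.1, 25.6 and 20.2 in SUS, and at 25.5, 25.5 and 24.8 in SUS_LE (log2 -0.13, SE 0.10, edgeR adjusted p = 0.609). For both genes the second SUS mouse stood inside the SED range. Among the other 6 genes of this class, Bcas1, a marker of actively myelinating cells, averaged 86.3 ± 2.55 CPM for SUS and 99.3 ± 2.59 for SED without overlap (log2 -0.20, SE 0.07, edgeR adjusted p = 0.209). Cldn11, the tight junction protein of myelin, overlapped between SUS and SED, as did Opalin, Gjb1, Pllp and Hapln2, with log2 fold changes of -0.19 to -0.06.

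Among the classes, the one listed as lipid synthesis had the largest median log2 fold change in SUS against SED, -0.38 over 4 genes. The values ran from -0.61 to -0.09, and the largest were those of Enpp6 and Aspa, the least abundant of the 4. Ugt8a and Fa2h, the genes of the class that act on galactolipids directly, were at -0.30 and -0.09. The 40 genes of the wider myelin lipid pathway, described below, had a median of -0.03. Of the 4 genes, 3 (75%) were lower at an unadjusted edgeR p of 0.05, against 6.26% of all tested genes. In the same 3 SUS lay below SED without overlap, against 8.56% of all tested genes. Ugt8a makes galactosylceramide, the main galactolipid of myelin. It stood at 46.1, 45.0 and 46.2 CPM in SED, at 34.3, 41.6 and 35.4 in SUS, and at 39.6, 40.9 and 40.4 in SUS_LE. Both restrained groups lay wholly below SED (log2 -0.30 for SUS, SE 0.07, edgeR adjusted p = 0.134, DESeq2 adjusted p = 0.0379).

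Aspa, which splits N-acetylaspartate and so supplies acetate for myelin lipids, stood at 10.2, 10.3 and 9.94 CPM in SED, at 6.94, 7.91 and 7.33 in SUS, and at 10.6, 8.05 and 7.83 in SUS_LE. SUS_LE 1 exceeded the SED range and the other 2 exercised mice lay below it (log2 -0.45 for SUS against SED, SE 0.14, edgeR adjusted p = 0.185). Enpp6, a phosphodiesterase known as a marker of newly forming oligodendrocytes, stood at 5.27, 5.12 and 6.96 CPM in SED, at 2.96, 4.16 and 4.25 in SUS, and at 6.98, 4.94 and 4.70 in SUS_LE. It had the largest fold difference of the 31 genes (log2 -0.61 for SUS against SED, SE 0.20, edgeR adjusted p = 0.216) at 43 to 103 counts a library. Fa2h, which hydroxylates the fatty acids of galactolipids, averaged 17.5 ± 1.16 CPM for SUS and 18.6 ± 0.130 for SED and overlapped (log2 -0.09, SE 0.10, edgeR adjusted p = 0.780).

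**Figure D2:**
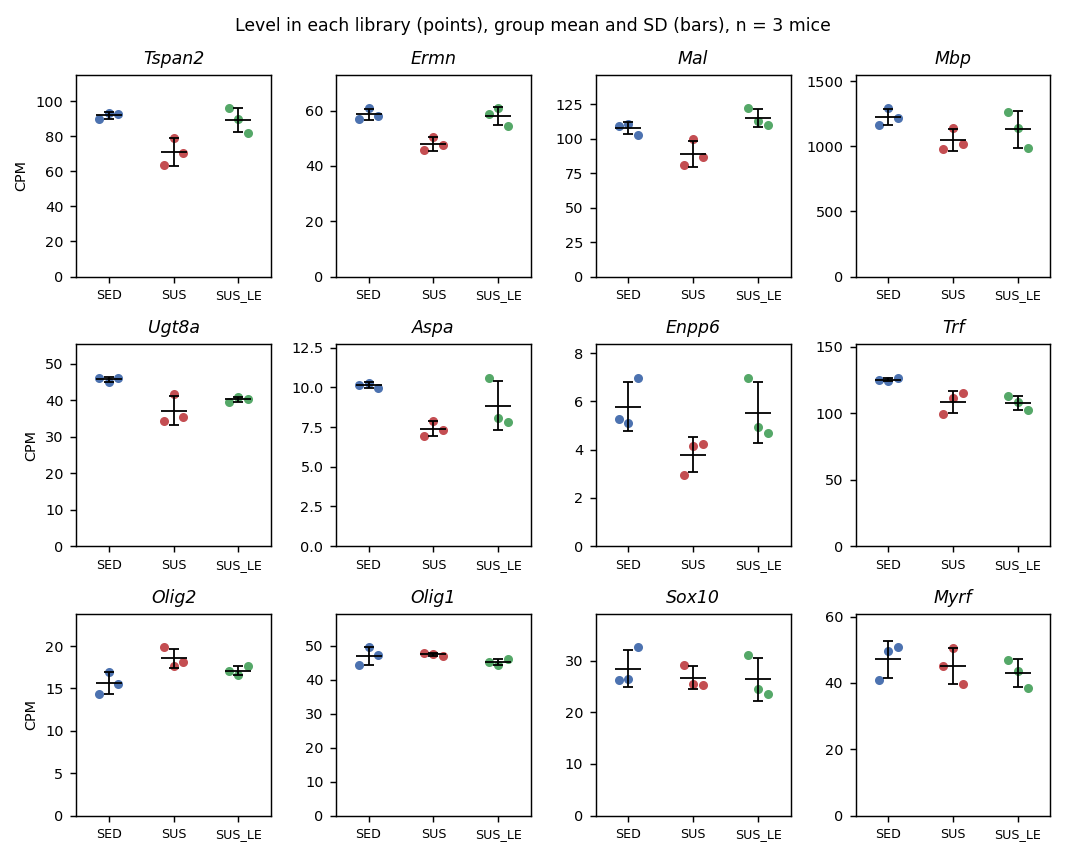
Level in CPM (vertical axes, from 0) of 12 of the 31 genes in SED, SUS and SUS_LE. Points are mice, the long bar is the group mean and the capped line the SD over 3 mice. SUS lies below SED without overlap in Tspan2, Ermn, Mal, Mbp, Ugt8a, Aspa, Enpp6 and Trf, above it in Olig2, and among the SED values in Olig1, or across them in Sox10 and Myrf.

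Of the 5 transcription factors 3 had lower and 2 higher values in SUS than in SED, with a median log2 fold change of -0.06. The difference between this class and the others was not tested. Olig2, which specifies the lineage and persists in mature cells, stood at 14.4, 17.0 and 15.5 CPM in SED, at 19.9, 17.7 and 18.2 in SUS, and at 17.1, 16.6 and 17.6 in SUS_LE. SUS values were all above those of the other groups, though SUS 2 exceeded SUS_LE 3 only narrowly (log2 0.25 against SED, SE 0.10, edgeR adjusted p = 0.276). Olig2 was the only one of the 31 genes higher in SUS than in SED at an unadjusted edgeR p of 0.05, and it was not under that p without SED 1, without SUS 1, without the 3 libraries lowest in Ttr, by DESeq2, with a choroid plexus covariate or with GC content and length trends removed.

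Its paralog Olig1 stood at 44.4, 49.6 and 47.3 CPM in SED, at 48.0, 47.6 and 47.1 in SUS, and at 45.4, 44.4 and 46.3 in SUS_LE. The SUS mice lay inside the SED range (log2 0.01, SE 0.06, edgeR adjusted p = 0.948). Sox10, which drives myelin genes in all myelinating glia, stood at 26.2, 26.5 and 32.6 CPM in SED, at 29.2, 25.5 and 25.4 in SUS, and at 31.1, 24.5 and 23.6 in SUS_LE (log2 -0.09 for SUS against SED, SE 0.11, edgeR adjusted p = 0.781). Myrf, the membrane-anchored factor that oligodendrocytes need to start and keep up myelin gene expression, stood at 40.8, 49.8 and 50.8 CPM in SED, at 45.0, 50.5 and 39.8 in SUS, and at 47.0, 43.5 and 38.6 in SUS_LE (log2 -0.06, SE 0.10, edgeR adjusted p = 0.844). Nkx6-2, a homeodomain factor of late maturation, stood at 3.09, 4.49 and 3.24 CPM in SED, at 2.34, 4.16 and 3.22 in SUS, and at 3.97, 2.66 and 3.61 in SUS_LE (log2 -0.15, SE 0.24, edgeR adjusted p = 0.834). In Sox10, Myrf and Nkx6-2 the 3 groups overlapped throughout. The approximate 95% interval of the ratio of SUS to SED was 0.831 to 1.10 for Myrf and 0.805 to 1.09 for Sox10. For Ermn, with a ratio of 0.816, it was 0.746 to 0.892, which overlaps both. Differences between these genes were not tested.

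To let the regulatory sequence be read beside these values, promoters are shown for the 3 genes with the smallest p between SUS and SED, Tspan2, Ermn and Ugt8a, and for Mag and Cnp, the only 2 genes that held both a SOX core and a Myrf motif (chosen after the matches were seen). Each line gives the 250 bases before the RefSeq transcription start, 5′ to 3′ on the gene's strand, on build GRCm38.p6. As a check of start and strand, the bases after the start were looked for in GENCODE transcripts and found for Tspan2, Ermn and Cnp but not for Ugt8a or Mag. The windows are chr3:102734520-102734769 on the plus strand for Tspan2, chr2:58052865-58053114 on the minus strand for Ermn, chr3:125938653-125938902 on the minus strand for Ugt8a, chr7:30914864-30915113 on the minus strand for Mag and chr11:100574689-100574938 on the plus strand for Cnp. Capitals mark matches on either strand to ACAAAG (the SOX core), to CTGGCAC or CTGGTAC (the forms of the Myrf motif searched), or to CAGCTG (an E-box, the kind of site that Olig factors bind).
Tspan2: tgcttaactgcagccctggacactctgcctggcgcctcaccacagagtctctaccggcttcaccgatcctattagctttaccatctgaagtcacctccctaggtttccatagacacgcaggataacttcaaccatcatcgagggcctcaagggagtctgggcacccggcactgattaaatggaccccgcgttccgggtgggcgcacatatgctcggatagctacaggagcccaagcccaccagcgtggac
Ermn: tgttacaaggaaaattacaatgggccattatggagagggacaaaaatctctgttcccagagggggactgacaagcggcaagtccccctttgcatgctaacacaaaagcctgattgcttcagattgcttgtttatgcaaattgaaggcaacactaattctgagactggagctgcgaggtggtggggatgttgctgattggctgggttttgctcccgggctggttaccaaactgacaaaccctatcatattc
Ugt8a: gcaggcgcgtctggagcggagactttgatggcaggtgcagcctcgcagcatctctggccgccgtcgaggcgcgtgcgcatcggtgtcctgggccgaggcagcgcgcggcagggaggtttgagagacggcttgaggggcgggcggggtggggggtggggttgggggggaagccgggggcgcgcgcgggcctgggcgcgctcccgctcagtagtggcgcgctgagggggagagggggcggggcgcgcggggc
Mag: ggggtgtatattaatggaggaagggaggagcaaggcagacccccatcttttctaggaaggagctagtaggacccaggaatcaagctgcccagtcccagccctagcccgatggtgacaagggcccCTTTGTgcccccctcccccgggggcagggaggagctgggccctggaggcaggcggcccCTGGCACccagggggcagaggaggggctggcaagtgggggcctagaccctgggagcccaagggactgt
Cnp: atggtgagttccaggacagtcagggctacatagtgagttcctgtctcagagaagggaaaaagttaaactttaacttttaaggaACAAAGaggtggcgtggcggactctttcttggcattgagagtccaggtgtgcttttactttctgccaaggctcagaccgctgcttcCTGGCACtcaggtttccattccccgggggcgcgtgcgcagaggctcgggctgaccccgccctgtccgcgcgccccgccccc

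Tspan2, Ermn and Ugt8a held none of these letters in the window, so their lines are in lower case throughout. Of the 31 genes 22 had a promoter in the RefSeq table. The check of start and strand succeeded for 18 of the 22, and the shares below include the windows, such as that of Mag, where it did not. A SOX core was in 6 of the 22 (27.3%), against 16.5% of 27025 promoters of the same length. A Myrf motif of either form was in 4 of the 22 (Mog, Mag, Cnp and Hapln2, 18.2%), against 5.86% of all promoters. An E-box was in 2 of the 22 (9.09%), against 12.8%. In Mag and Cnp the marked SOX core and Myrf motif do not overlap. Whether any of these factors binds there was not measured.

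Among the 8 enzymes, carriers and other genes, 7 had lower values in SUS than in SED, with a median log2 fold change of -0.12. Where 6.26% of all tested genes were lower at an unadjusted edgeR p of 0.05, 1 of the 8 (12.5%) was. That gene was Trf, the iron carrier transferrin, which oligodendrocytes and choroid plexus epithelium both make. Trf stood at 125, 124 and 127 CPM in SED, at 99.2, 112 and 115 in SUS, and at 113, 108 and 102 in SUS_LE. All 6 restrained mice were below all 3 SED mice (log2 -0.21 for SUS against SED, SE 0.06, edgeR adjusted p = 0.169). Car2, carbonic anhydrase of oligodendrocytes that choroid plexus also expresses, stood at 116, 113 and 115 CPM in SED, at 86.6, 110.3 and 113 in SUS, and at 106, 103 and 99.6 in SUS_LE. Its SUS and SED ranges met at 113 CPM (log2 -0.15, SE 0.08, edgeR adjusted p = 0.449). SUS 1, the library lowest in choroid plexus markers, was also lowest in Trf, Gpr37, Car2 and Cryab, and in 13 of the 31 genes in all. SUS_LE 3, at 95.9 CPM of these markers, was lowest in 8 of the 31. SUS_LE 1, at 124 CPM, was highest in 14. With choroid plexus level as a covariate, SUS against SED gave log2 -0.16 for Trf and -0.06 for Car2.

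Gpr37, a receptor of maturing oligodendrocytes, stood at 54.6, 55.9 and 54.7 CPM in SED, at 43.1, 56.3 and 48.8 in SUS, and at 60.2, 56.0 and 51.4 in SUS_LE, with SUS 2 above every SED mouse (log2 -0.16, SE 0.08, edgeR adjusted p = 0.439). Apod, a lipid carrier that vascular and meningeal cells also make, stood at 119.7, 85.6 and 139.9 CPM in SUS, the widest spread of the 8, and at 128, 123 and 132 in SED. SUS 2 was also the library lowest in the summed level of 10 meningeal fibroblast markers (294 CPM, against 313 to 660.0 in the others), and the part of these cells in the Apod values was not tested. Sirt2, a deacetylase of oligodendrocytes and neurons, averaged 88.6 ± 1.25 CPM for SUS and 87.4 ± 4.22 for SED. Qdpr (log2 -0.02, SE 0.07), Plekhb1 (-0.09, SE 0.06) and the small heat shock protein gene Cryab (-0.05, SE 0.15) overlapped between SUS and SED.

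Between SUS_LE and SUS, 21 of the 31 genes had higher and 10 lower values in SUS_LE, with a median log2 fold change of 0.11, against a median of 0 over all tested genes. The SUS libraries serve both in this comparison and in the one before, so opposite signs in both share those libraries. By edgeR 0 of the 31 passed the adjusted threshold, as did 0% of all tested genes. At an unadjusted edgeR p of 0.05, 6 were higher and 0 lower, where 7.2% and 6.49% of all tested genes were. In 5 genes all SUS_LE values lay above all SUS values and in 2 they lay below, against 8.61% and 8.38% of all tested genes. DESeq2 placed 3 of the 31 higher and 0 lower, against 1.95% and 1.33% of the genes to which it gave an adjusted p. With independent filtering turned off it called Mal and Tspan2 (73 of 16106 genes), and the call of Ermn was lost.

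The 3 genes DESeq2 called were of myelin structure. Mal was at 115 ± 6.43 CPM in SUS_LE and 89.2 ± 9.44 in SUS, a ratio of 1.29 (log2 0.37, SE 0.07, edgeR adjusted p = 0.0922, DESeq2 adjusted p = 0.00167). Tspan2 was at 89.2 ± 7.04 and 71.0 ± 7.89 CPM (log2 0.33, SE 0.07, edgeR adjusted p = 0.106, DESeq2 adjusted p = 0.0131). Ermn was at 58.0 ± 3.30 and 47.9 ± 2.50 CPM (log2 0.28, SE 0.07, edgeR adjusted p = 0.108, DESeq2 adjusted p = 0.0300). In all 3 the SUS_LE mice lay above the SUS mice without overlap. With choroid plexus level as a covariate, an alternative chosen after seeing the data, edgeR adjusted p was 0.0108 for Mal, 0.0152 for Tspan2 and 0.0189 for Ermn, in a fit that called 411 of 16106 genes. Without the 3 libraries lowest in Ttr these edgeR adjusted p-values were 0.205, 0.238 and 0.191. With GC content and length trends removed they were 0.118, 0.26 and 0.426, and the log2 fold change of Ermn was 0.17. Both of these settings were likewise chosen after seeing the data. Of myelin structure genes 13 of 14 had higher values in SUS_LE than in SUS (median 0.14), the exception being Mag (-0.02, SE 0.08).

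The 4 lipid synthesis genes all had higher values in SUS_LE than in SUS, with a median log2 fold change of 0.19. Enpp6 was at 5.54 ± 1.26 CPM in SUS_LE and 3.79 ± 0.724 in SUS without overlap (log2 0.55, SE 0.21, edgeR adjusted p = 0.249). Without SUS_LE 1 this difference was 0.35, and without the 3 libraries lowest in Ttr it was 0.23 (edgeR adjusted p = 0.867). Aspa (log2 0.25, SE 0.14, edgeR adjusted p = 0.435) and Ugt8a (0.12, SE 0.07, 0.497) overlapped between the 2 groups. The transcription factors had lower values in 4 of 5 (median -0.07), and Olig1 and Olig2 lay below SUS without overlap, by log2 -0.07 (SE 0.06, edgeR adjusted p = 0.667) and -0.12 (SE 0.10, edgeR adjusted p = 0.608). These 2 of 5 (40%) stand against 8.38% of all tested genes that lay lower without overlap. Of the remaining 8 genes, Apod (log2 0.44, SE 0.17, edgeR adjusted p = 0.333) and Gpr37 (0.18, SE 0.08, 0.359) had the smallest p, and 5 had lower values in SUS_LE.

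The exercised mice differed among themselves. The mean of the 14 myelin structure genes, in log2 CPM centred on the 9 libraries, was 0.21 in SUS_LE 1, 0.01 in SUS_LE 2 and -0.09 in SUS_LE 3, against -0.16, -0.01 and -0.17 in SUS 1 to 3 and 0.02, 0.17 and 0.03 in SED 1 to 3. Without SUS_LE 1, the median log2 fold change of the 31 genes for SUS_LE against SUS was 0, with 16 higher and 15 lower values. At an unadjusted edgeR p of 0.05, 3 were higher and 1 lower, against 5.68% and 5.2% of all tested genes. Without SUS_LE 3 the median was 0.16, with 27 higher values and 13 higher at that p, against 6.32% of all tested genes. Without SUS 2, edgeR called Mal, Ermn and Tspan2 (adjusted p = 0.0136, 0.0423 and 0.0286) among 184 of 16366 genes. Without SUS 1 it called, of the 31, Mal alone (edgeR adjusted p = 0.0378), among 83 of 16334 genes. With any other library left out it called 0 of the 31, and the smallest edgeR adjusted p of the 31 reached 0.274 without SUS_LE 2.

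**Figure D3:**
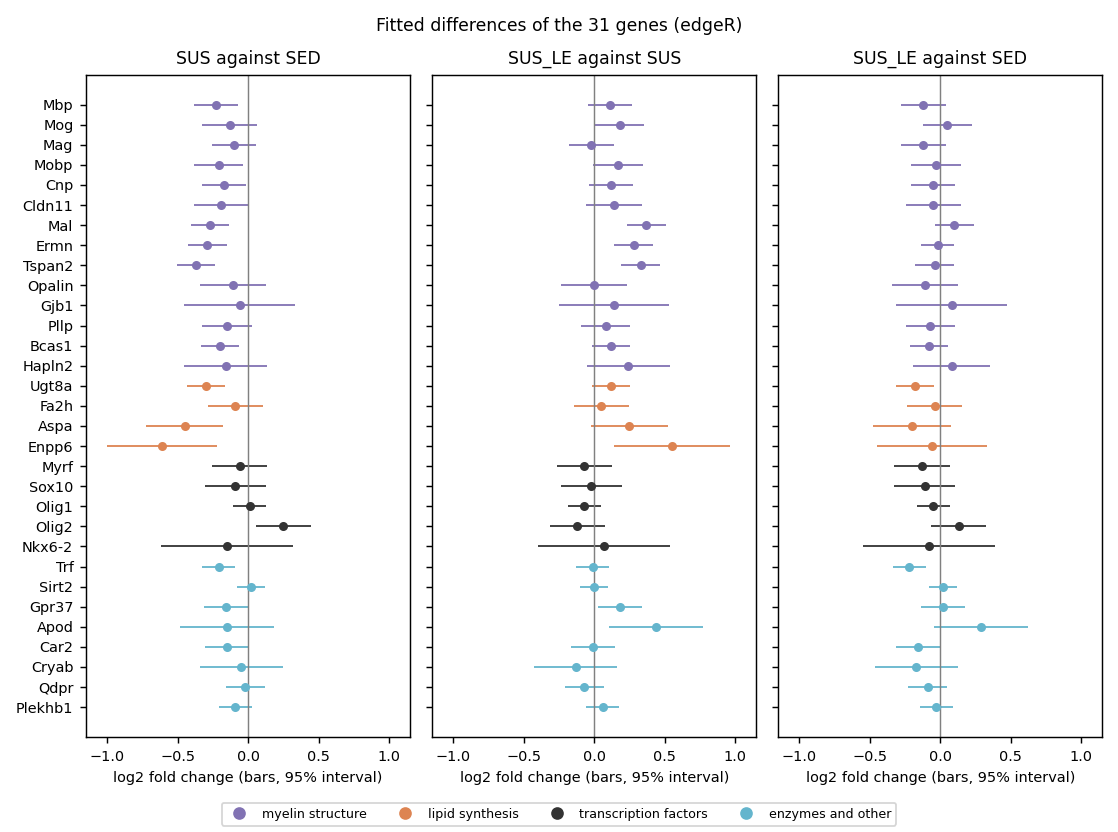
Log2 fold changes of the 31 genes (rows) in 3 comparisons (panels) from edgeR, with bars of the approximate 95% interval, coloured by role. In SUS against SED all myelin structure and lipid synthesis genes lie left of 0, and Olig2 lies right of it at 0.25. In SUS_LE against SED the estimates lie between -0.22 and 0.29.

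Between SUS_LE and SED the genes lay closer together: 23 of the 31 had lower values in SUS_LE, with a median log2 fold change of -0.05, against 0.01 over all tested genes. By edgeR 0 passed the adjusted threshold, as did 0% of all tested genes. At an unadjusted edgeR p of 0.05, 2 were lower and 0 higher, against 3.86% and 2.79% of all tested genes. In 3 genes SUS_LE lay below SED without overlap and in 1 above, against 8.64% and 7.54%. DESeq2 called 0 of the 31, against 0.087% of genes lower and 0.0124% higher. The 2 lower genes were Trf (log2 -0.22, SE 0.06, edgeR adjusted p = 0.456) and Ugt8a (-0.18, SE 0.07, 0.677). With only the 6 libraries of this comparison in the fit, edgeR called Trf (adjusted p = 0.0161) and Apod, among 239 of 15767 genes. With choroid plexus level as a covariate Trf was at log2 -0.12 (edgeR adjusted p = 0.808). Tspan2 (log2 -0.04, SE 0.07), Ermn (-0.02, SE 0.06) and Mal (0.10, SE 0.07) had ratios to SED of 0.970, 0.989 and 1.07, with approximate 95% intervals of 0.878 to 1.07, 0.905 to 1.08 and 0.974 to 1.17. Apod, at 156 ± 11.6 CPM in SUS_LE and 128 ± 4.32 in SED, was the gene whose SUS_LE values all lay above SED.

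Over the 3 groups together, SUS had the lowest mean in 21 of the 31 genes, SUS_LE in 8 and SED in 2. The SUS mean was lowest in 13 of 14 myelin structure genes, 4 of 4 lipid synthesis genes, 1 of 5 transcription factors and 3 of the remaining 8 genes. The share of all tested genes with the lowest mean in SUS was not counted. These orders rest on the same values as the comparisons above and add no separate result. The edgeR test for any difference among the groups gave 8 of 31 an unadjusted p under 0.05, where 13.5% of all tested genes had one, and 0 passed the adjusted threshold (smallest adjusted p = 0.122, Mal).

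Genes of earlier stages of the lineage were read from lists written out by name with earlier results of these data known. Of 22 oligodendrocyte precursor genes 9 were lower and 13 higher in SUS than in SED (median log2 fold change 0.02), and 0 passed edgeR's adjusted threshold. Pdgfra, the growth factor receptor that marks precursors, averaged 57.7 ± 5.33 CPM for SUS and 64.2 ± 2.68 for SED (log2 -0.15, SE 0.07, edgeR adjusted p = 0.372). Ptprz1, a receptor phosphatase of precursors and astrocytes, stood at 279 ± 12.6 and 316 ± 11.8 CPM (log2 -0.18, SE 0.05, edgeR adjusted p = 0.165, DESeq2 adjusted p = 0.0265). Vcan, a matrix proteoglycan of precursors, stood at 20.9 ± 1.12 and 26.8 ± 3.75 CPM (log2 -0.36, SE 0.10, edgeR adjusted p = 0.155). Cspg5, a transmembrane proteoglycan, had a higher value (log2 0.15, SE 0.06, edgeR adjusted p = 0.314). In SUS_LE against SUS 8 of the 22 were higher and 14 lower (median -0.02), and against SED 11 were lower and 11 higher.

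Of 17 genes of newly formed oligodendrocytes 14 were lower in SUS than in SED (median -0.06) and 0 passed. Tns3, a focal adhesion protein of differentiating cells, had the smallest p (log2 -0.16, SE 0.07, edgeR adjusted p = 0.316). Gpr17, a receptor of cells that are about to mature, stood at 32.6 ± 3.51 CPM in SUS, 30.3 ± 3.13 in SED and 29.3 ± 0.732 in SUS_LE. Of 44 tested genes on a list of 47 other mature oligodendrocyte genes, 32 were lower and 12 higher in SUS (median -0.13). At an unadjusted edgeR p of 0.05, 9 were lower (20.5%) and 0 higher, against 6.26% and 6.83% of all tested genes. Prr18 (log2 -0.39, SE 0.09, edgeR adjusted p = 0.112), Secisbp2l (-0.21, SE 0.06, 0.163), Trim59 (-0.40, SE 0.12, 0.181) and the connexin gene Gjc3 (-0.22, SE 0.07, 0.207) had the smallest p. In SUS_LE against SUS, 27 of the 44 were higher (median 0.05), led by St18, a zinc finger factor (log2 0.34, SE 0.09, edgeR adjusted p = 0.138, DESeq2 adjusted p = 0.0396).

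**Figure D4:**
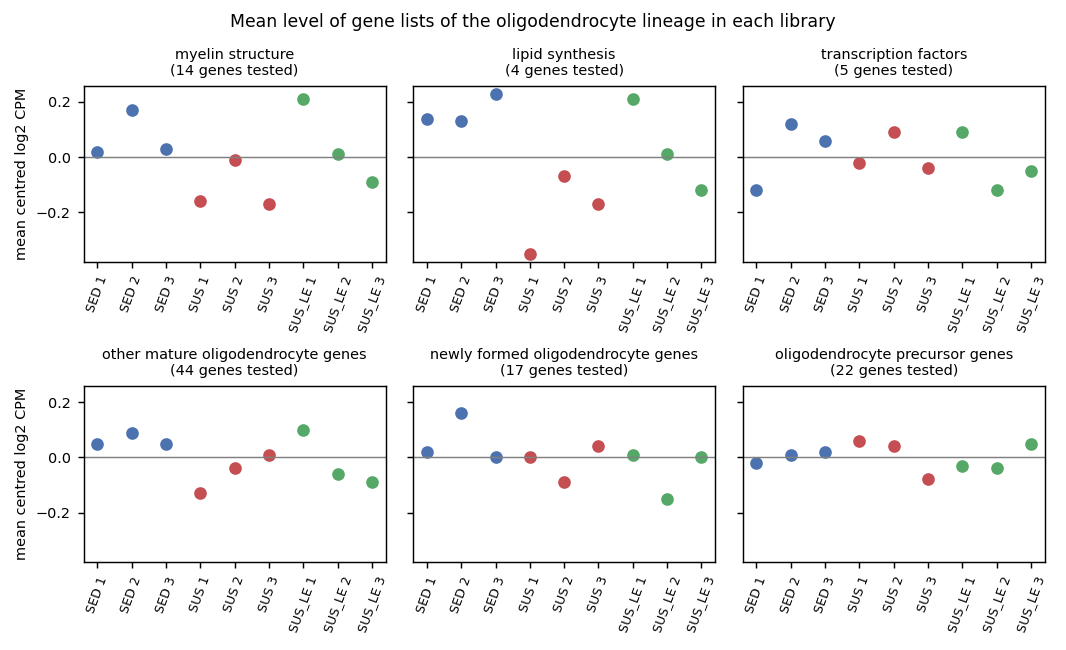
Mean log2 CPM, centred on the 9 libraries, of 6 gene lists (panels) in each library (horizontal axis), coloured by group. The 3 SUS points lie below the 3 SED points in myelin structure, lipid synthesis and other mature oligodendrocyte genes, and among or around them in transcription factors, newly formed oligodendrocyte and precursor genes.

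The wider myelin lipid pathway, 40 genes of sphingolipid, fatty acid and cholesterol synthesis, had 25 lower and 15 higher values in SUS against SED (median -0.03). At an unadjusted edgeR p of 0.05, 1 was lower (2.5%) and 2 were higher (5%). Both shares were below those of all tested genes, 6.26% and 6.83%. Cyp51, a demethylase of cholesterol synthesis, was the lower one, at 49.1 ± 0.829 CPM in SUS, 58.2 ± 0.238 in SED and 52.5 ± 1.07 in SUS_LE (log2 -0.25 for SUS against SED, SE 0.06, edgeR adjusted p = 0.134, DESeq2 adjusted p = 0.0385). Arsa, the lysosomal sulfatase that degrades sulfatide (log2 0.29, SE 0.11, edgeR adjusted p = 0.264), and Srebf2, the master factor of cholesterol synthesis (0.12, SE 0.05, 0.353), were the higher ones. Of 15 tested genes of the myelin-axon junction, made mostly by neurons, 7 were lower and 8 higher in SUS (median 0.03). At an unadjusted edgeR p of 0.05, 1 was lower (6.67%) and 2 were higher (13.3%), against 6.26% and 6.83% of all tested genes. Cntnap1, the axonal paranodal protein, averaged 203 ± 11.8 CPM for SUS and 178 ± 10.7 for SED (log2 0.19, SE 0.06, edgeR adjusted p = 0.183). Sptbn4, the spectrin of nodes, averaged 134 ± 5.64 and 121 ± 1.82 (0.15, SE 0.05, 0.247). Cntn1 was the lower one, at 449 ± 36.4 CPM for SUS and 499 ± 6.47 for SED without overlap (log2 -0.15, SE 0.06, edgeR adjusted p = 0.269).

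Other cell types in the tissue moved with some of these values. SUS 1, the library lowest in 13 of the 31 genes, had the highest summed level of 10 hippocampal excitatory neuron markers (6488 CPM, against 5071 to 5754 in the others) and the lowest choroid plexus level. Without SUS 1 the median log2 fold change of the 31 genes for SUS against SED was -0.13, with 26 lower values. Of these, 8 were lower at an unadjusted edgeR p of 0.05, against 4.59% of all tested genes. With choroid plexus level as a covariate the median was -0.16, with 9 lower at that p, against 5.1% of all tested genes. Astrocyte markers summed to 5070.0 to 5248 CPM in SUS, 5439 to 5715 in SED and 5531 to 5765 in SUS_LE, so that the SUS sum lay below both other groups. Most of that sum was Slc1a2, at 3595 ± 93.1 CPM in SUS and 4003 ± 114 in SED. Of the 10 astrocyte markers 5 had lower and 5 higher values in SUS than in SED. Their mean centred log2 CPM overlapped, at -0.06, 0.03 and -0.03 in SED 1 to 3 and 0.02, -0.09 and -0.04 in SUS 1 to 3. In SUS_LE against SUS, DESeq2 placed 3 of the 10 astrocyte markers higher (Aqp4, Slc1a2 and Slc1a3), against 1.95% of the genes to which it gave an adjusted p. Of 8 endothelial markers 4 were higher at an unadjusted edgeR p of 0.05, against 7.2% of all tested genes. The smallest p among them was that of the efflux transporter gene Abcb1a (log2 0.35, SE 0.08, edgeR adjusted p = 0.102, DESeq2 adjusted p = 0.0251). Neuron markers differed in sign. Prox1, the marker of dentate granule cells, was at log2 -0.41 in SUS against SED (SE 0.11, edgeR adjusted p = 0.178, DESeq2 adjusted p = 0.00563) and 0.34 in SUS_LE against SUS, while Wfs1, a marker of CA1 neurons, was at 0.62 and -0.49. The part of these neuronal, astrocyte and endothelial differences in the myelin values was not tested. Across all tested genes, fold changes of SUS against SED followed GC content (Spearman rho 0.35 over 14697 genes, which are not independent replicates) and transcript length (rho -0.23). For SUS_LE against SUS these rho values were -0.38 and 0.13. The median GC content of the 31 genes' longest transcripts was 52.5% against 49.7% for all, and their median length 2571 against 3417 bases. With per-library GC and length trends removed, the median log2 fold change of the 31 genes for SUS against SED was -0.19. In that fit 30 values were lower, and 15 were lower at an unadjusted edgeR p of 0.05, against 3.64% of all tested genes. In the same fit Tspan2 was at log2 -0.31, Ermn at -0.21 and Ugt8a at -0.22, and the smallest edgeR adjusted p of the 31 genes was 0.228.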

How the data were processed

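Ventral hippocampus RNA of 9 mice was sequenced, 3 per group. Each library has 1 deposited table of whole-number counts by gene symbol, for which no normalization is recorded. Fastp, STAR and Salmon with GRCm39 are named in the submitters' processing notes. Annotation, strandedness, UMI handling and any rounding of Salmon estimates are not given in the sources used here. Per the labels, total RNA entered a CORALL RNA-seq V2 preparation. Column headers of the files number the exercised libraries otherwise than the labels, and the labels' numbers are used.

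The main test used edgeR 4.0.16 in R 4.3.3; DESeq2 1.42.0 and limma 3.58.1 served as alternatives. The edgeR expression filter left 16106 genes holding 99.9% of counts, with TMM factors and a robust quasi-likelihood fit with group as the only term (common biological coefficient of variation 0.0845). The fits were tested on simulated data with known changes, which were larger than most of the differences given here. A first requirement on the share of the larger changes recovered was not met and was then lowered. DESeq2 ran with its default independent filtering, which leaves low genes without an adjusted p. A count of 0 in a library has an upper limit of 3 counts, for counting error only. Exact permutation of 3 against 3 mice reaches no p below 0.1, so none was used. Each library is labelled as a separate mouse. Libraries of 1 group differed beyond sampling noise (chi-square per degree of freedom 2.77 to 15.5), so none was counted as a duplicate.

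The members and all gene lists were chosen with earlier results of these data known. Genes given in every library were, in each class, the 3 with the smallest p between SUS and SED (all 5 for transcription factors), plus Mbp, Mog, Mag, Mobp and Cnp, and from other lists up to 4 with the smallest p. Gpr17, Apod, Bcas1, Fa2h, Sirt2 and the Mag and Cnp promoters were added after their values were seen. Promoters came from RefSeq (GRCm38.p6), and GC content, length and exon overlaps from GENCODE M21. By that annotation exons of Ermn, Tspan2, Pllp, Bcas1, Olig1, Cryab and Qdpr overlap a gene on the opposite strand and Trf one on its own strand, so reads may be shared for Trf, and for the others if counting ignored strand. Alternatives were other scaling factors, filters and tests, 2 groups only, the replicate number as a block, no robust step and each library left out. A choroid plexus covariate, the loss of the 3 libraries lowest in Ttr, GC and length offsets, and DESeq2 without independent filtering were added after seeing the data.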

Additional observations from a re-analysis of the deposited data

How the results depend on the processing

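For the 19 genes given in full, 1254 values were recomputed over 3 comparisons and 22 other settings. Of these, 1219 were counted as keeping their direction and their side of the adjusted threshold, 30 came past it and 5 reversed. A sign change was counted only where a value exceeded its SE in either fit, a rule set after seeing the data. DESeq2 values without an adjusted p were counted as not past the threshold. The reversals were Olig1 in SUS against SED (-0.09) and in SUS_LE against SUS (0.04) with GC and length offsets, Car2 with the choroid plexus covariate in SUS_LE against SUS (0.09) and against SED (0.03), and Nkx6-2 in SUS_LE against SUS without the 3 libraries lowest in Ttr (-0.47). The cause was not tested.

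Counts of genes past the adjusted threshold, over all genes, moved most. For SUS against SED, where the report has 0, they were 297 without a filter on low counts, 163 by DESeq2, 53 by DESeq2 without independent filtering, 14 after dropping the 3 libraries lowest in Ttr, and 1 with the replicate block. For SUS_LE against SUS they were 430, 180, 73, 20 and 1, with 411 under the choroid plexus covariate, and 1 each without the robust step and with only the 2 groups compared. For SUS_LE against SED they were 218, 16, 16 and 16 under the first 4 of these settings, 2 with the covariate, 1 without the robust step and 239 with only the 2 groups.

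Of the 31 genes, 0 in place of 1 were higher in SUS than in SED at an unadjusted p of 0.05 by DESeq2 with or without independent filtering, with the covariate, with GC and length offsets, and after dropping the 3 low-Ttr libraries. In these fits 4.49% to 5.27% of all tested genes were higher at that p. For SUS_LE against SUS, 1 of the 31 was lower and 3 were higher without those 3 libraries, against 4.79% and 4.36% of all tested genes. For SUS_LE against SED, 1 was higher without the robust step, against 2.79%. With only the 2 groups 4 were lower and 1 higher, against 6.25% and 3.91%. With the covariate 0 were lower, against 3.14%.

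Leaving out each library in turn gave, for SUS against SED, 0 to 74 genes past the adjusted threshold and, of the 31, 8 to 13 lower and 0 to 1 higher at the unadjusted p, with a median log2 fold change of -0.20 to -0.13. For SUS_LE against SUS it gave 0 to 184 genes, 0 to 2 lower, 3 to 13 higher and a median of 0 to 0.16. For SUS_LE against SED it gave 0 to 69 genes, 1 to 9 lower, 0 to 1 higher and a median of -0.15 to 0.01, with both extremes of the median set by SUS_LE 1 and SUS_LE 3. At the unadjusted p, 4.24% to 8.69% of all tested genes were lower and 4.47% to 7.59% higher over the same fits for SUS against SED. For SUS_LE against SUS these shares were 5.13% to 7.64% and 5.35% to 8.17%, and for SUS_LE against SED 2.77% to 5.53% and 2.18% to 3.62%.

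Replicate numbers did not pair the libraries: same-numbered libraries of different groups correlated at -0.12 to 0.18 in their deviations, others at -0.28 to 0.17. With the replicate block, at an unadjusted p of 0.05, 12 of the 31 were lower and 1 higher for SUS against SED, against 6.3% and 6.33% of all tested genes. For SUS_LE against SUS 7 were higher, against 6.95%, and for SUS_LE against SED 2 were lower, against 3.51%. Enpp6, at 43 to 103 counts a library, did not pass the edgeR adjusted threshold in SUS against SED at a log2 difference of -0.61 with an SE of 0.20. Of all tested genes 0 passed in that fit, and the part of depth in the Enpp6 result was not tested.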
